A study of Mus musculus with 6 samples.

Results

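Transcription factors of the heart were examined in infarcted mouse tissue after blockade of Wnt secretion. The set was chosen by name, with earlier results of these data known. It held 10 genes, Gata4, Gata6, Nkx2-5, Tbx5, Tbx20, Mef2a, Mef2c, Hand2, Srf and Myocd, of the 36047 genes to which the measured transcripts could be joined. All 10 passed the filter on low counts, at least 10 counts in at least 3 libraries, as did 20094 genes in all. These factors specify heart muscle in the embryo and keep the genes of contraction, conduction and natriuretic peptides active in the adult. They act in combination, since GATA, NK2 homeodomain and T-box proteins bind neighbouring sites in cardiac enhancers, the MEF2 proteins and SRF share the MADS DNA-binding domain, and myocardin binds no DNA itself but switches on genes through SRF. Several are not restricted to cardiomyocytes: cardiac fibroblasts also express Gata4, Gata6, Tbx5, Tbx20 and Hand2, endothelial cells Mef2c, and smooth muscle Srf and Myocd.

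The mice were of strain C57BL6, 12 weeks old by the labels, and were female according to the methods of the study. All of them underwent ischemia/reperfusion (I/R) of the left anterior descending artery, and RNA was taken from the dissected infarct area 48 h later, so neither group is an uninjured heart. One group of 3 mice received LGK-974 by mouth, an inhibitor of Porcupine, the enzyme that attaches the lipid which Wnt proteins need for secretion, and the other 3 received the DMSO vehicle. The comparison asks which transcripts differ in the infarct when Wnt secretion is blocked.

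The 6 libraries held between 41579787 and 80398211 estimated counts, of which 28.2% to 53.7% came from mitochondrial genes. DMSO replicate 1 stood apart. Its median correlation with the other libraries was 0.909, against 0.973 to 0.981 for the rest, and 99.3% of 1501 olfactory, vomeronasal and taste receptor genes, which heart should not express, had counts in it, against 60.4% to 88.5% elsewhere. Results that this library moved are therefore also given without it. Scaled to exon length, such background accounted for 4.66% to 15.4% of the counts of the factors in DMSO replicate 1 and for at most 3.95% in the other libraries. All 14 cardiomyocyte markers were present in every library, the lowest value being 170 CPM for Trdn in LGK-974 replicate 3.

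None of the 10 factors passed an adjusted p of 0.05 when edgeR's quasi-likelihood test was run over all tested genes and adjusted by the Benjamini-Hochberg method. Neither did any of the 20094 genes (0.0% called), and DESeq2, which called 337 genes (1.68%), called 0 of the 10 factors. At an unadjusted p under 0.05, 1 of the 10 was lower with LGK-974 and 0 were higher. Over all tested genes that share was 13.4% (2699 genes), with 7.18% lower and 6.26% higher. Only Hand2 had groups that did not overlap, every LGK-974 library lying below every DMSO library. This happened in 18.0% of all tested genes, in 7.27% with LGK-974 lower and in 10.7% with LGK-974 higher, so the share among the factors was near the background. Their fitted log2 fold changes (LGK-974 over DMSO) ran from −0.63 for Hand2 to 0.40 for Srf, with 6 below and 4 above 0 and a median of −0.24, while the median over all tested genes was −0.13. Without DMSO replicate 1, the median of the factors was −0.35 and that of all genes −0.02. In that fit 4 of the 10, Gata6, Nkx2-5, Hand2 and Myocd, were lower at an unadjusted p under 0.05, against 3.89% of 18547 genes tested. With the TMM factors of that fit these 4 also had groups that did not overlap, all lower, against 11.9% of genes. Without DMSO replicate 3, in contrast, the median of the factors was 0.09, and without LGK-974 replicate 3 it was −0.12, and in neither fit did a factor have an unadjusted p under 0.05. The tissue is a mixture, so fewer cells of a type and less RNA per cell cannot be told apart in any of these values.

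**Figure D1:**
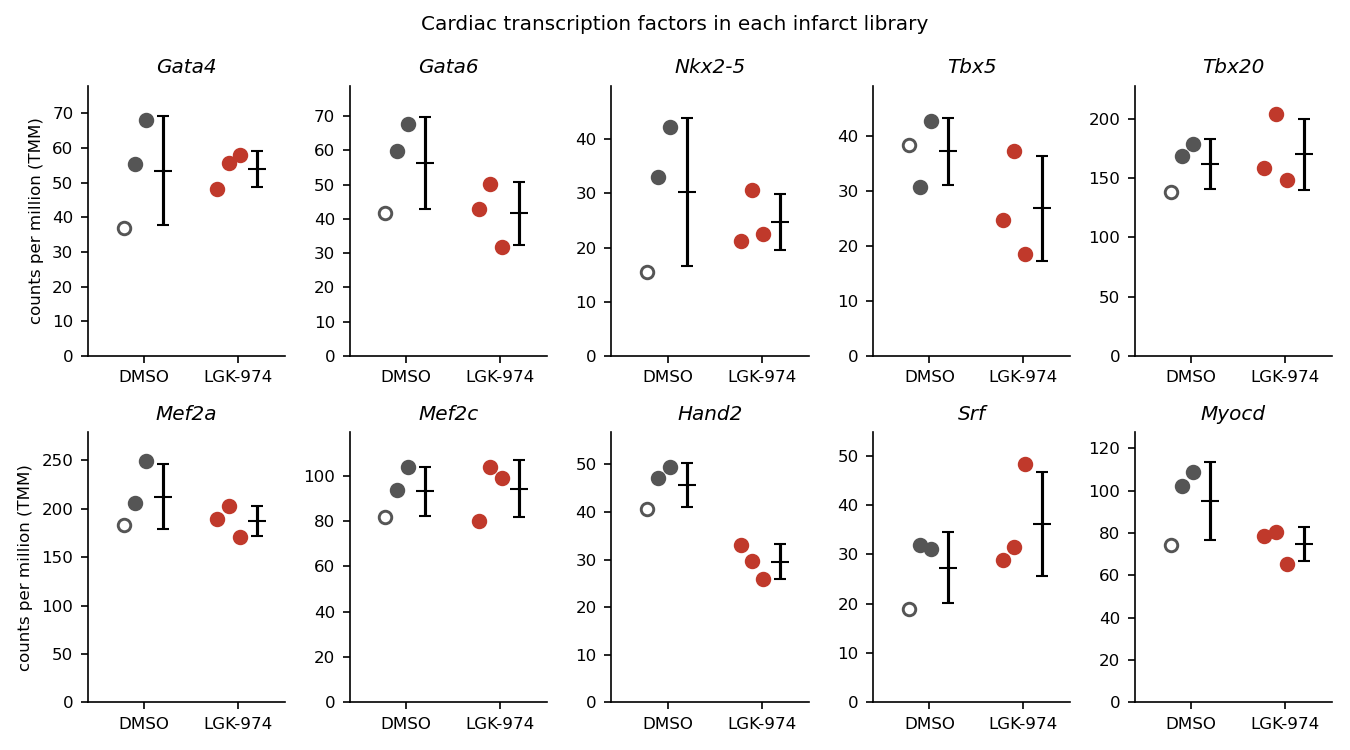
CPM (counts scaled with TMM factors) of each factor in the 3 DMSO (grey) and 3 LGK-974 (red) libraries, with the mean and SD of each group beside the points; the open circle is DMSO replicate 1. The 3 LGK-974 libraries of Hand2, at 25.8 to 33.1 CPM, sit below all DMSO libraries, whereas the groups of the other 9 factors overlap.

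GATA4 and GATA6 are zinc-finger proteins that bind the GATA motif and cooperate with most of the other factors in the set. Gata4 lies on chromosome 14 (63198922 to 63271692, minus strand, all positions in GRCm38). Its level, in CPM (counts scaled with TMM factors to a library total of 1000000), was 48.1, 55.6 and 58.1 in LGK-974 replicates 1, 2 and 3 and 36.9, 55.4 and 68.2 in DMSO replicates 1, 2 and 3. The DMSO libraries spanned the whole range of the treated ones, with the lowest value in the library that stood apart. The group means of 53.9 ± 5.20 and 53.5 ± 15.7 CPM (SD, n = 3 each) gave a log2 fold change of 0.01 (95% interval −0.53 to 0.55, edgeR adjusted p = 0.983), and of −0.18 without DMSO replicate 1. The sign for this gene therefore depended on that library.

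Gata6, which also acts in endoderm and vascular smooth muscle, read 42.9, 50.3 and 31.8 CPM with LGK-974 and 41.6, 59.9 and 67.7 CPM with DMSO. The lowest vehicle value, again in DMSO replicate 1, fell inside the treated range, and the other vehicle values lay above it. Its log2 fold change was −0.44 (standard error 0.242, edgeR adjusted p = 0.408), and −0.60 (standard error 0.210, edgeR adjusted p = 0.371) without DMSO replicate 1. Its sign was the same under all 15 alternatives, from −0.60 to −0.18. Exons of Gata6 share 93 bases with a gene on the opposite strand, which had no entry in the transcripts quantified. The counting was not stated to use strand, so reads there cannot be told apart.

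NKX2-5 is the NK2 homeodomain protein whose absence stops the heart tube from looping. Nkx2-5 (chromosome 17, 26838664 to 26845009, minus strand) read 21.2, 30.6 and 22.5 CPM with LGK-974 and 15.4, 33.0 and 42.2 CPM with DMSO. The vehicle libraries thus held both the lowest and the highest value, and their SD of 13.6 CPM was the widest of the set relative to the mean of 30.2 CPM. The log2 fold change of −0.29 (95% interval −1.09 to 0.51, edgeR adjusted p = 0.678) became −0.59 (95% interval −1.06 to −0.12, edgeR adjusted p = 0.370) without DMSO replicate 1, and 0.12 without DMSO replicate 3.

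TBX5 and TBX20 are T-box factors. TBX5 drives septation and the conduction system together with GATA4 and NKX2-5, and TBX20 is needed to keep adult cardiomyocytes contracting. Tbx5 (chromosome 5, 119832668 to 119885219, plus strand) read 24.7, 37.3 and 18.6 CPM with LGK-974 and 38.3, 30.7 and 42.8 CPM with DMSO. Replicate 2 of each group placed the groups in overlap, and the remaining treated values were below all vehicle values. Its log2 fold change was −0.47 (95% interval −1.09 to 0.14, edgeR adjusted p = 0.412), and it stayed below 0 under all 15 alternatives, from −0.72 to −0.21.

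Tbx20 (chromosome 9, 24718138 to 24774303, minus strand) was the more abundant T-box gene in counts, with 158, 204 and 148 CPM with LGK-974 and 138, 169 and 179 CPM with DMSO. The groups overlapped, and the highest library was a treated one. The estimate on the log2 scale was 0.07 (95% interval −0.40 to 0.53, edgeR adjusted p = 0.879), and −0.02 without DMSO replicate 1.

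MEF2A and MEF2C are MADS-box factors that activate muscle structural genes and are held in check by class II histone deacetylases. Mef2a (chromosome 7, 67231163 to 67372858, minus strand) had 189, 202 and 171 CPM with LGK-974 and 183, 205 and 249 CPM with DMSO. A single vehicle library, DMSO replicate 3, was well above the other 5. The log2 fold change was −0.18 (95% interval −0.62 to 0.26, edgeR adjusted p = 0.631), and 0.06 without that library. Mef2a exons share 302 bases with Lysmd4 on the opposite strand, and the counting was not stated to use strand, so reads there cannot be told apart.

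Mef2c (chromosome 13, 83504034 to 83667080, plus strand) had 79.9, 104 and 98.8 CPM with LGK-974 and 82.0, 93.5 and 104 CPM with DMSO. The 2 groups covered nearly the same range. Its log2 fold change of 0.02 had a standard error of 0.177 (95% interval −0.39 to 0.43, edgeR adjusted p = 0.968), the smallest error after Hand2.

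HAND2 is a basic helix-loop-helix factor of the right ventricle and outflow tract in the embryo, and it is also expressed in cardiac fibroblasts of the adult. Hand2 (chromosome 8, 57320983 to 57324633, plus strand) has a single transcript in the annotation used, so its counts do not depend on how reads were split between isoforms. The 250 bases before its RefSeq start (GRCm38.p6) are printed because Hand2 was the factor with separated groups. Capitals mark matches to the GATA motif, which is the letters GATA with A or T before and A or G after, searched on both strands.
Hand2, chr8:57320733-57320982, plus strand: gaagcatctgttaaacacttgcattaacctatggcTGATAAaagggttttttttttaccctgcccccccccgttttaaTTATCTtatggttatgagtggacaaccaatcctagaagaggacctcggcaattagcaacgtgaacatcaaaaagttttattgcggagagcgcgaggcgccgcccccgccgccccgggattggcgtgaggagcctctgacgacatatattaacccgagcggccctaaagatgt
The matches began 215 and 172 bases before the start, the nearer one read on the opposite strand. Such a match was present in 26.5% of the 32851 promoter windows of this length, and it describes letters in the sequence, not a bound site.

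Hand2 had 33.1, 29.8 and 25.8 CPM with LGK-974 and 40.5, 47.1 and 49.4 CPM with DMSO. The highest treated library lay below the lowest vehicle library, which was DMSO replicate 1. The group means were 29.6 ± 3.65 and 45.7 ± 4.62 CPM (SD, n = 3 each), a ratio of 0.647. The log2 fold change was −0.63 (standard error 0.161, 95% interval −1.0 to −0.25), with an unadjusted p of 0.00486 that became an adjusted p of 0.368 in edgeR's quasi-likelihood test. DESeq2 gave a log2 fold change of −0.61 with an adjusted p of 0.0727, its smallest among the factors. With 3 libraries against 3, the exact permutation test (two-sided) cannot go below p = 0.1, and Hand2 reached that value. Without DMSO replicate 1 the log2 fold change was −0.69 (edgeR adjusted p = 0.291), and over 15 alternatives it ran from −0.84 to −0.46 with edgeR, limma or DESeq2 adjusted p from 0.0727 to 0.772. Exons of Hand2 share 461 bases with Hand2os1, a long noncoding RNA gene on the opposite strand, which had no entry in the transcripts quantified. The counting was not stated to use strand, so reads of the 2 genes there cannot be told apart.

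SRF, serum response factor, binds the CArG box and pairs either with myocardin, for contractile genes, or with ternary complex factors, for immediate early genes. Srf (chromosome 17, 46548329 to 46556175, minus strand) is itself known as a target of SRF, and the 250 bases before its RefSeq start (GRCm38.p6) are shown for that reason, with CArG boxes in capitals.
Srf, chr17:46556163-46556412, minus strand: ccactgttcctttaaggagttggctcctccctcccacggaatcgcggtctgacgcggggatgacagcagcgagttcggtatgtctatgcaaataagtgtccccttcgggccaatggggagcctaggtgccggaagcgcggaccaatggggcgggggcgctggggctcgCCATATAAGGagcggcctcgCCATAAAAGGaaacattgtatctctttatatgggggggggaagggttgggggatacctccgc
The boxes began 82 and 62 bases before the start. The CArG pattern, CC and GG around a run of A or T, matches at the same place on both strands. The letters of a given box can differ between the strands. A match was present in 1.47% of the 32851 windows.

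Srf read 28.8, 31.4 and 48.2 CPM with LGK-974 and 19.0, 31.9 and 31.0 CPM with DMSO. One treated library, LGK-974 replicate 3, was above all others and DMSO replicate 1 was below all others, while the remaining 4 lay between 28.8 and 31.9 CPM. The log2 fold change of 0.40 (95% interval −0.22 to 1.03, edgeR adjusted p = 0.471) was the highest of the set. It was 0.21 (95% interval −0.30 to 0.72, edgeR adjusted p = 0.751) without DMSO replicate 1 and between 0.20 and 0.60 over 15 alternatives.

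Myocd, the gene of the coactivator myocardin (chromosome 11, 65176561 to 65269989, minus strand), read 78.4, 80.6 and 65.4 CPM with LGK-974 and 74.2, 102 and 109 CPM with DMSO. DMSO replicate 1 again lay among the treated libraries and the other vehicle libraries above all of them. Its estimate was a log2 fold change of −0.35 (standard error 0.196, edgeR adjusted p = 0.415), and −0.48 (standard error 0.165, edgeR adjusted p = 0.366) without DMSO replicate 1. The coactivator and its partner Srf thus had estimates on opposite sides of 0, each with a 95% interval that included 0 in the fit of all 6 libraries. No test of the difference between them was made.

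**Figure D2:**
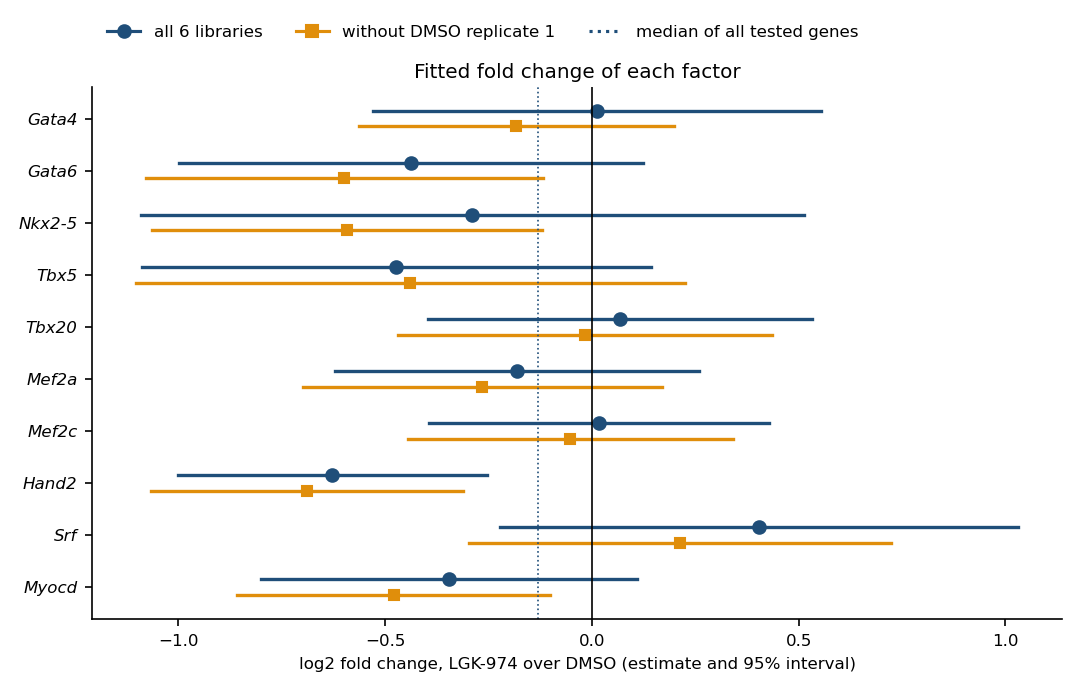
Log2 fold change of LGK-974 over DMSO with its 95% interval for each factor, from edgeR on all 6 libraries (circles) and without DMSO replicate 1 (squares); the dotted line marks the median of all tested genes, −0.13. Among circles only the interval of Hand2 (−1.0 to −0.25) excludes 0, and without DMSO replicate 1 those of Gata6, Nkx2-5, Hand2 and Myocd do; no factor passes after adjustment in either fit.

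The other genes of the network were read from the same fit. Of 13 family relatives, the GATA, NK2, T-box, MEF2 and HAND genes outside the set, 10 were tested and all 10 had a log2 fold change below 0, with a median of −0.62, against 59.5% of all tested genes. Without DMSO replicate 1 the median was −0.48 and 7 of the 9 relatives then tested were below 0, with Gata5 at 0.10 and Tbx18 at 0.02. Without DMSO replicate 3, 8 of 9 were below 0, the exception being Mef2d at 0.11. Gata2, a factor of endothelial and blood cells, was the only relative at an unadjusted p under 0.05. This count was 3 without DMSO replicate 1 (Gata2, Tbx2 and Tbx3) and 0 without LGK-974 replicate 2, LGK-974 replicate 3 or DMSO replicate 3. Gata2 had 8.09, 8.36 and 6.67 CPM with LGK-974 and 9.73, 10.7 and 13.7 CPM with DMSO, groups that did not overlap, with a log2 fold change of −0.56 (edgeR adjusted p = 0.368). Gata3 (log2 fold change −0.86) and Tbx3, a repressor that marks the conduction system (−0.37), came next in unadjusted p. Gata3 had 5.03 CPM in DMSO replicate 1 against 2.48 and 2.43 in the other vehicle libraries, and without that library its log2 fold change was −0.41. Several relatives were scarce, and 4 of the 13 had no count in at least 1 library.

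Among 18 other heart transcription factors, 16 were tested, 15 had estimates below 0 and the median was −0.33 (−0.44 without DMSO replicate 1). A total of 4 were lower at an unadjusted p under 0.05: Irx3, Hopx, Esrrg and Klf15. The count was 6 without DMSO replicate 1, 2 without LGK-974 replicate 2, 1 without LGK-974 replicate 1 and 0 without either LGK-974 replicate 3 or DMSO replicate 3. Irx3, an Iroquois factor of the conduction system, had 23.1, 25.9 and 20.7 CPM with LGK-974 and 29.4, 39.3 and 33.3 CPM with DMSO, and these groups did not overlap (log2 fold change −0.55, edgeR adjusted p = 0.368). Hopx, a homeodomain protein that binds no DNA and restrains SRF, had a log2 fold change of −0.67, and Esrrg, a nuclear receptor of oxidative metabolism, one of −0.49. Klf15, a glucocorticoid-responsive repressor of hypertrophic genes, had the largest difference of the list, a log2 fold change of −1.12 with 3.85 to 15.5 CPM under LGK-974 and 17.0 to 26.5 CPM under DMSO. None of the 4 passed after adjustment in edgeR or in DESeq2.

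The 18 cofactors, chromatin proteins and coactivators that work with these factors, were centred on 0, with 9 above, 9 below and a median of 0.00 (−0.10 without DMSO replicate 1). None had an unadjusted p under 0.05 with all libraries, whereas without DMSO replicate 1 Hdac5 and Smyd1 were lower at that p. Mrtfa was higher at that p without LGK-974 replicate 2, and Elk3 without DMSO replicate 3. Hdac9, a class II deacetylase that represses MEF2, had 28.8 to 33.8 CPM under LGK-974 and 38.1 to 39.5 CPM under DMSO (log2 fold change −0.32). Smyd1, a muscle-restricted methyltransferase gene regulated by MEF2C, had a log2 fold change of −0.45. Mrtfa, whose product carries actin signals to SRF, had one of 0.46, with 17.6 to 28.1 CPM under LGK-974 and 12.5 to 18.0 CPM under DMSO, overlapping by a narrow margin.

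The genes these factors are known to activate had estimates in both directions. Of 18 cardiac target genes 17 were tested, with a median log2 fold change of 0.21 (0.066 without DMSO replicate 1 and −0.014 with background subtracted), and 2 were higher and 2 lower at an unadjusted p under 0.05. Both counts were also 2 without DMSO replicate 1. They were 1 and 1 without LGK-974 replicate 1, 3 and 1 without DMSO replicate 2, and 1 and 0 without LGK-974 replicate 3 or DMSO replicate 3. Nppa, the atrial natriuretic peptide gene and a textbook target of GATA4, NKX2-5 and TBX5, had 1454, 1263 and 1126 CPM with LGK-974 and 459, 723 and 691 CPM with DMSO. All treated libraries exceeded all vehicle libraries, with a log2 fold change of 1.04 (0.88 without DMSO replicate 1). It did not pass in edgeR (adjusted p = 0.368), while DESeq2 called it higher (adjusted p = 0.00195). Actc1, cardiac alpha-actin, followed the same pattern, at 2138 to 2680 CPM under LGK-974 and 981 to 1826 CPM under DMSO (log2 fold change 0.86, DESeq2 adjusted p = 0.0336). The ion channel genes Kcnj2, which carries the resting potassium current, and Hcn4, the pacemaker channel, lay in the other direction, with log2 fold changes of −0.62 and −0.98 and edgeR adjusted p = 0.368 for both.

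Genes driven by SRF lay mostly above 0. Of 16 cytoskeletal targets of SRF and myocardin, 11 had positive estimates, with a median log2 fold change of 0.58 (0.57 without DMSO replicate 1, but 0.18 without LGK-974 replicate 3), and 4 (Acta1, Actg1, Actb and Cald1) were higher and 0 lower at an unadjusted p under 0.05. The count of higher genes was 8 without LGK-974 replicate 2 and 3 to 6 without any other single library. Acta1, skeletal alpha-actin, had 163, 173 and 172 CPM with LGK-974 and 70.4, 97.8 and 90.9 CPM with DMSO. The treated libraries differed little among themselves and all exceeded the vehicle libraries (log2 fold change 0.97, edgeR adjusted p = 0.368, DESeq2 adjusted p = 0.000124). Actg1 and Actb, the cytoplasmic actins of all cell types, had log2 fold changes of 0.93 and 0.97 with groups that did not overlap. DESeq2 called both higher, at adjusted p = 0.0316 and 0.0174.

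Of 10 immediate early targets of SRF, 9 had positive estimates, with a median log2 fold change of 0.81 (0.69 without DMSO replicate 1, and 0.56 without LGK-974 replicate 3). A total of 5 (Fos, Junb, Egr1, Egr3 and Ccn1) were higher at an unadjusted p under 0.05, and 5 (Fos, Junb, Egr1, Egr2 and Ier2) had groups that did not overlap. Without LGK-974 replicate 3 the first count was 2. Egr1, a zinc-finger factor induced within minutes of a stimulus, had 30.6, 31.8 and 51.9 CPM with LGK-974 and 17.1, 25.6 and 22.1 CPM with DMSO (log2 fold change 0.82). Fos, a subunit of AP-1, was scarce at 3.09 to 4.96 CPM under LGK-974 and 2.01 to 2.30 CPM under DMSO, with a log2 fold change of 0.93. Egr3 had one of 0.83. Each of the 3 had an edgeR adjusted p of 0.368, and DESeq2 called 0 of them, with the smallest adjusted p, 0.0829, for Egr1.

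Promoter windows were available for 13 of the 16 cytoskeletal targets, and 5 of these genes held a CArG box, against 1.62% of the 27025 genes with a window. The genes were listed as known targets of SRF, which binds this box, so their share is not a result of these data. The boxes are printed with 10 bases on each side, capitals marking the box, followed by those of Hopx and Actc1. CArG boxes in further genes of the companion lists are not printed.
Acta1, chr8:123894829-123894858, minus strand: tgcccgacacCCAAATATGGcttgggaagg
Actg1, chr11:120348566-120348595, minus strand: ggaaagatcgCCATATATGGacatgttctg
Fhl1, chrX:56779571-56779600, plus strand: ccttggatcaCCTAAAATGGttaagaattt
Vcl, chr14:20929161-20929190, plus strand: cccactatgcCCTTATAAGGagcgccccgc
Fhl2, chr1:43196838-43196867, minus strand: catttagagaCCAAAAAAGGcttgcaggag
Fhl2, chr1:43163973-43164002, minus strand: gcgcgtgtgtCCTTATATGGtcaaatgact
Hopx, chr5:77115187-77115216, minus strand: taacccgagtCCAAATAAGGaagctgggga
Actc1, chr2:114052903-114052932, minus strand: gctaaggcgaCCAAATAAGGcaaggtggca
Hopx and Actc1 belong to other lists and hold the same 10 letters, and their log2 fold changes were −0.67 and 0.86. The part of the box in any of these estimates was not tested. Fhl1, a LIM-domain protein gene, had a log2 fold change of 0.46, Vcl, the gene of the adhesion protein vinculin, one of 0.14 and Fhl2, a LIM-domain partner of SRF, one of −0.33. Of the 10 factors, 6 had a window in the RefSeq table, Nkx2-5, Tbx20, Mef2a, Mef2c, Hand2 and Srf. A CArG box was found only in Srf and a GATA match only in Hand2. The MEF2 box, searched by its name motif, and the NKX2-5 site, searched as TTAAGTG and TCAAGTG, matched in none of the 6, against 1.69% and 4.67% of all windows. The T-box letters AGGTGT occurred in 1 of the 3 windows of Mef2c, against 11.8% of all windows.

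**Figure D3:**
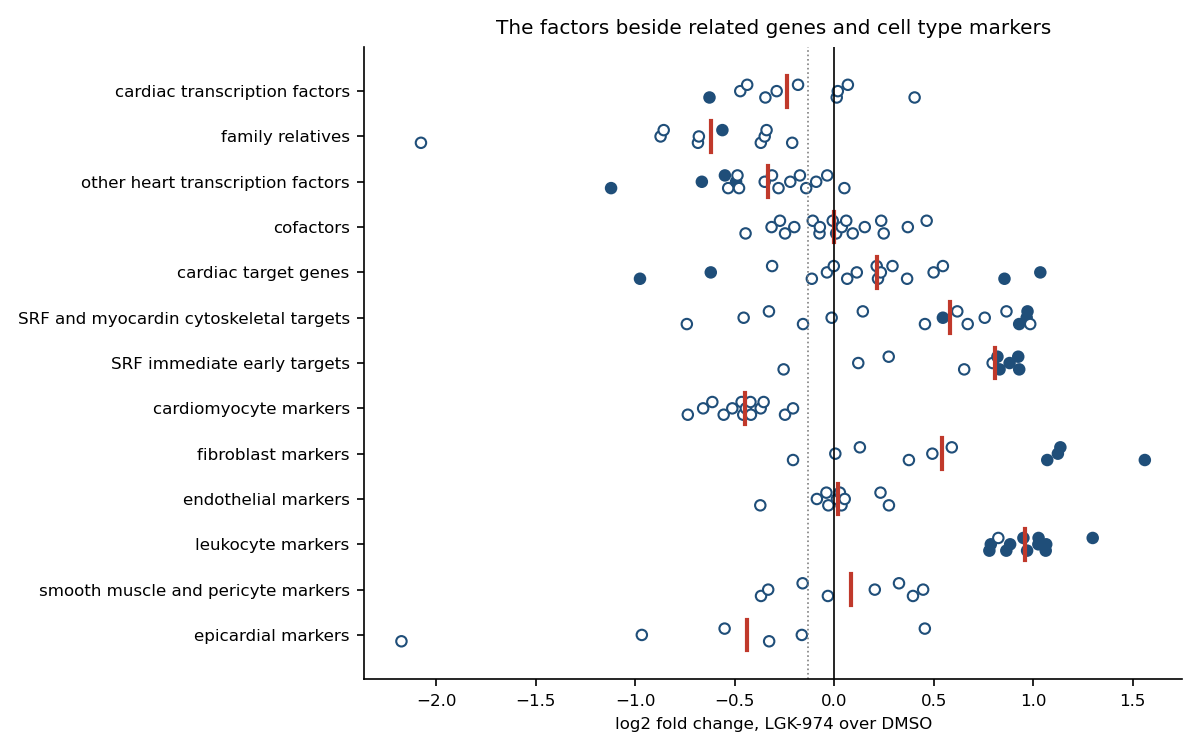
Log2 fold change of LGK-974 over DMSO for every tested gene of each list, one circle per gene; filled circles have an unadjusted p under 0.05 in edgeR, red bars are list medians and the dotted line is the median of all tested genes. The cardiac transcription factors (median −0.24) sit between the cardiomyocyte markers (−0.45) and the SRF target lists (0.58 and 0.81), and leukocyte markers lie highest (0.96).

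Markers of the cell types in the tissue differed between the groups as well. All 14 cardiomyocyte markers had estimates below 0, with a median log2 fold change of −0.45 (−0.54 without DMSO replicate 1, −0.27 without LGK-974 replicate 3 and −0.19 without DMSO replicate 3). With all libraries 0 of them had an unadjusted p under 0.05 and their groups overlapped, while without DMSO replicate 1 Myl3 and Cox6a2 were lower at that p. Their summed level was 39190 to 59560 CPM under LGK-974 and 48960 to 68780 CPM under DMSO, and none was at 0 in any library. Myl3 and Myl2, the ventricular myosin light chains, and Mb, myoglobin, had log2 fold changes of −0.56, −0.51 and −0.61. Over all 14 markers the estimates ran from −0.74 to −0.21, and over the 10 factors from −0.63 to 0.40.

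Of 12 leukocyte markers, all had estimates above 0, with a median of 0.96 (0.87 without DMSO replicate 1), and 11 had an unadjusted p under 0.05 and groups that did not overlap. Their summed level was 497 to 641 CPM under LGK-974 and 217 to 313 CPM under DMSO. By flow cytometry of whole hearts of other mice at the same time after injury, the study reported fewer leukocytes with LGK-974. Marker RNA in the infarct area and cell numbers are different measures, and how they relate here was not tested. Lyz2, lysozyme of myeloid cells, had 164, 165 and 212 CPM with LGK-974 and 52.2, 81.9 and 85.7 CPM with DMSO, and DESeq2 called it, the pan-leukocyte gene Cd53 and the macrophage gene Adgre1 higher (adjusted p = 0.000122, 0.00496 and 0.0105).

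Among 10 fibroblast markers, 9 had positive estimates, with a median log2 fold change of 0.54 (0.45 without DMSO replicate 1) and 4 (Postn, Col3a1, Col1a1 and Col1a2) higher at an unadjusted p under 0.05. Postn, the periostin gene of activated fibroblasts, had the largest, 1.56, and the collagen genes Col3a1 and Col1a2 had 1.14 and 1.07. DESeq2 called these 3 higher, at adjusted p = 5.42e-05, 0.00604 and 0.0186. The markers other than Postn and the collagen genes had lower estimates. These were 0.59 for Tcf21, 0.49 for Lum, 0.38 for Thy1, 0.13 for Pdgfra, 0.01 for Dcn and −0.21 for Fap. Summed fibroblast markers stood at 3448 to 5995 CPM under LGK-974 and 1705 to 2503 CPM under DMSO.

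The remaining cell types showed no gene at an unadjusted p under 0.05 with all libraries, while without DMSO replicate 3, the endothelial Egfl7 was higher and the epicardial Msln and Upk1b were lower at that p. Endothelial markers had a median log2 fold change of 0.02 (−0.11 without DMSO replicate 1), with Vwf at −0.37, Kdr at 0.28 and Egfl7 at 0.23. Smooth muscle and pericyte markers had one of 0.09 (−0.063 without DMSO replicate 1), with Mcam at 0.45, Cspg4 at 0.40 and Abcc9 at −0.37. Epicardial markers were scarce, at 8.60 to 19.4 CPM summed per library, with a median of −0.44 that was −0.27 without DMSO replicate 1. Wt1, a defining factor of the epicardium, had a log2 fold change of −0.55 (−0.46 without that library). Msln, with 7.67 CPM in DMSO replicate 1 against 2.01 to 2.67 CPM elsewhere, had one of −0.97 that was −0.16 without it, and Upk1b one of −2.18 that was −1.13. The part of any of these marker differences in the values of the factors was not tested.

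Each factor was therefore also read relative to the cardiomyocyte markers, as its log2(CPM + 0.5) less the mean of the markers on the same scale in the same library. The marker mean itself differed by −0.49 log2 units between LGK-974 and DMSO (exact two-sided permutation p = 0.3). On this relative scale 8 of the 10 factors had a higher mean under LGK-974, the median difference being 0.31, and 3 of them, Gata4, Tbx20 and Mef2c, had groups that did not overlap. Without DMSO replicate 1 the median difference was 0.25. Leaving that library out moved Nkx2-5 from 0.31 to 0.02, Gata6 from 0.07 to −0.006 and Tbx5 from −0.01 to 0.14. Of all tested genes 76.3% were higher on this scale, with a median of 0.40, and 22.3% were higher without overlap, so the factors followed the bulk of genes. Hand2, separated in CPM, overlapped here, with values of −4.94, −5.64 and −4.98 under LGK-974 and −4.97, −4.99 and −5.23 under DMSO, a difference of −0.13 (exact permutation p = 0.9). With single libraries left out, the Hand2 difference ran from −0.25 (without LGK-974 replicate 1) to 0.10 (without LGK-974 replicate 2). Srf had the largest relative difference, 0.89, with −5.14, −5.57 and −4.10 under LGK-974 and −6.04, −5.55 and −5.89 under DMSO (exact permutation p = 0.2). Tbx20 had −2.70, −2.89 and −2.49 against −3.21, −3.16 and −3.38, a difference of 0.56 at the smallest exact permutation p of 0.1. Relative to the fibroblast markers, whose mean was 0.60 higher under LGK-974, 0 of the 10 factors were higher, against 4.57% of all tested genes. Of the factors 8 were lower without overlap, against 59.2% of all tested genes. The marker means differed in opposite directions between the groups, so the direction of most tested genes, the factors among them, depended on the reference. This is not particular to the factors.

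**Figure D4:**
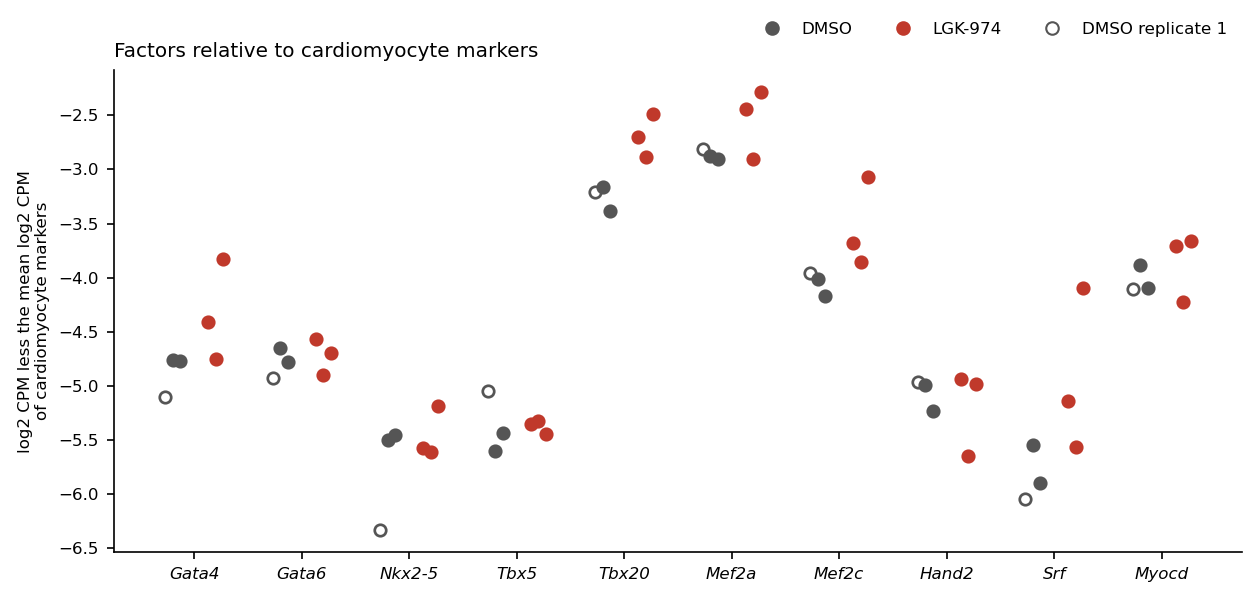
Level of each factor relative to the cardiomyocyte markers, as log2(CPM + 0.5) less the marker mean in the same library, for DMSO (grey) and LGK-974 (red) libraries; the open circle is DMSO replicate 1. Gata4, Tbx20 and Mef2c separate with LGK-974 higher, and Hand2, which separated in CPM, overlaps.

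Levels between the factors were compared per length, in the TPM values of the authors, which scale length-corrected counts to a sum of 1000000, added up per gene. The order over all 6 libraries was Mef2a (mean 55.9 TPM), Mef2c (48.8), Tbx20 (38.0), Myocd (36.8), Gata6 (24.3), Gata4 (23.0), Nkx2-5 (20.1), Srf (19.4), Hand2 (16.3) and Tbx5 (14.5 TPM). Only the steps from Mef2c to Tbx20 and from Myocd to Gata6 held in all 6 libraries. The neighbours Tbx20 and Myocd kept their order in 4 libraries and Srf and Hand2 in 2, so these pairs did not differ beyond their spread. LGK-974 replicate 3, the library with the smallest mitochondrial share, had the highest TPM of 6 factors, with 95.2 TPM for Mef2c and 46.7 TPM for Srf against at most 51.5 and 19.0 TPM elsewhere. TPM was for this reason used for the order within libraries and not to compare the groups.

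**Figure D5:**
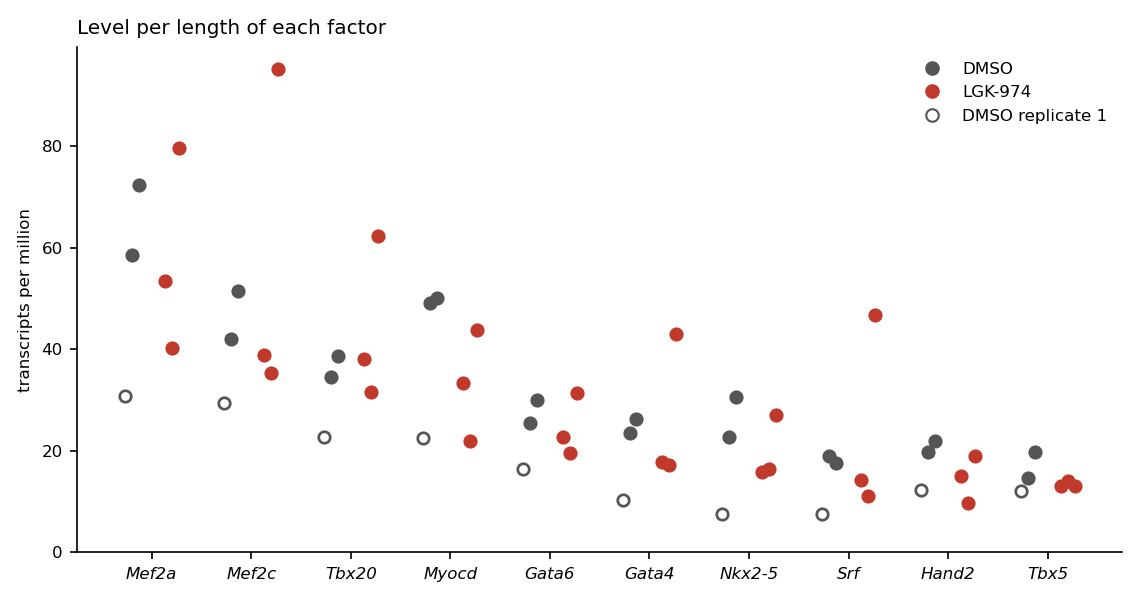
TPM of each factor in DMSO (grey) and LGK-974 (red) libraries, ordered by the mean over all 6; the open circle is DMSO replicate 1. By this mean the MEF2 genes lie highest, at 29.4 to 95.2 TPM per library, and Tbx5 lowest, at 12.0 to 19.7 TPM. The order differs within single libraries.

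The files list transcripts, so the share of each gene's estimated counts given to its isoforms was compared as well. Most factors had a single dominant coding transcript: Nkx2-5-201 took 93.6% to 96.1% of its gene's counts, Srf-201 92.0% to 97.7%, Tbx20-201 88.0% to 90.1%, Gata6-201 76.6% to 87.2% and Tbx5-201 68.2% to 81.3%. The leading Myocd transcript, Myocd-203, with a coding sequence of 2949 bases, took 77.9%, 88.0% and 82.2% with LGK-974 and 66.9%, 82.8% and 73.5% with DMSO. The difference of 8.33 percentage points did not separate the groups (exact permutation p = 0.3). Mef2c was spread over 31 transcripts, the leading one at 22.0% to 26.3%. For Mef2a, transcripts annotated as retained introns took 27.1% to 34.7% in 5 libraries and 43.0% in DMSO replicate 1.

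Gata4 was split between 2 transcripts of nearly the same coding length, Gata4-202 (35.7% to 57.4%) and Gata4-201 (28.1% to 45.1%). A shorter one, Gata4-203, with a coding sequence of 708 bases against 1323 for Gata4-202, took 15.1%, 16.7% and 24.1% with LGK-974 and 12.8%, 12.1% and 10.6% with DMSO. Its groups did not overlap, a difference of 6.80 points at the smallest exact permutation p of 0.1. Of the 75 transcripts of the 9 factors with several transcripts, 3 (4.0%) had separated shares, the others being minor ones, Gata6-203 (means of 0.247% and 0.00%) and Myocd-206 (1.18% and 3.05%). The same share over all transcripts of the series was not computed, so these 3 are descriptions and no isoform shift is read from them. No leading transcript had shares that separated the groups. Kallisto divides reads that fit several isoforms, so shares of overlapping transcripts are estimates.

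For each factor, the gene of the companion lists with the most similar profile was taken, among 141 genes with a mean of at least 1 CPM. Similarity was the root mean square difference of log2(CPM + 0.5), centred per gene, over the 6 libraries, which share depth and batch with every gene. Gata4 was closest to Tie1 (0.05) and Tbx20 to Tek (0.05), both endothelial receptor genes. Mef2a was closest to Meis1 (0.06), Gata6 to Ryr2, the calcium release channel of cardiomyocytes (0.07), and Myocd to Hey1 (0.07). Mef2c was closest to Zfpm2 (0.10), which encodes a GATA4 cofactor, Hand2 to Gata2 (0.11), Tbx5 to Ckmt2, the mitochondrial creatine kinase of muscle (0.12), Srf to Mrtfa (0.12) and Nkx2-5 to Hdac5 (0.14). The median difference over all candidates was between 0.28 and 0.47 for the factors. With 6 libraries these are descriptions of the profiles and carry no test.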

How the data were processed

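RNA sequencing of the infarct area of 6 mice was analysed, 3 per group by the labels. The authors quantified transcripts with Kallisto (version not given in the sources used here) on an Ensembl index of GRCm38 after RiboZero depletion and the TrueSeq RNA Access kit, and deposited files that hold, for 118489 transcripts, the estimated count and the TPM. Of these, 98.6% were joined to 36047 genes of GENCODE vM21 (GRCm38), and the sum of the estimated counts over each gene's transcripts was rounded. Genes reaching 10 counts in 3 or more libraries were tested with edgeR 4.0.16 (R 4.3.3) using TMM, the quasi-likelihood test and Benjamini-Hochberg adjustment at 0.05, with treatment as the only term. Standard errors and 95% intervals were derived from the F statistic. Alternatives used DESeq2 1.42.0, limma-voom (limma 3.58.1), other counts, filters and left-out libraries. The tests were run on simulated counts with 200 genes changed by 2 log2 units. At the fitted dispersion edgeR called 149 genes, 20 of them false, and recovered 64.5% of the changed genes. DESeq2 called 263, 100 of them false, and recovered 81.5%. At a low dispersion the false calls were 8 of 208 with edgeR and 14 of 214 with DESeq2. Changes as small as those estimated for the factors were not simulated, nor was a library that stood apart. Recovery in those cases was therefore not tested. Other steps used Python 3.11.15 (NumPy 2.4.6, pandas 2.3.3, matplotlib 3.10.9).

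The members and the 12 companion lists were chosen with earlier results of these data known. Genes named were all 10 factors, the 3 genes per list with the smallest unadjusted p, and the gene most alike each factor. Actc1, Klf15, Cald1, Junb, Ccn1, Egr2, Ier2, Col1a1, Tcf21, Lum, Thy1, Pdgfra, Dcn, Fap, Vcl, Fhl1, Fhl2, Gata5, Tbx2, Tbx18, Mef2d, Elk3, Cox6a2, Trdn and the isoforms Gata4-203, Gata6-203 and Myocd-206 were named after their values were seen. Exact permutation tests of single values were two-sided, with 20 arrangements. Depth was 41579787 to 80398211 estimated counts per library, and each factor had at least 613 counts in every library. Flow cytometry, echocardiography and histology were not analysed here.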

Additional observations from a re-analysis of the deposited data

How the results depend on the processing

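Under all 15 alternative fits, 0 of the 10 factors passed an adjusted p of 0.05. The median log2 fold change of all tested genes moved from −0.13 to −0.55 with no filter on low counts and to 0.03 with background subtracted. DESeq2 called 337 genes and edgeR with no filter 1206, with 4790 at an unadjusted p under 0.05. Factors at that p numbered 0 with no filter, 2 with counts scaled from TPM, 3 with protein-coding transcripts only and 4 with background subtracted, and factors whose groups did not overlap numbered 0, 1, 2 and 4 in the same order. Over all tested genes, 4790 of 34257, 2003 of 20447, 2564 of 17179 and 2169 of 16725 were at that p in these fits. The groups of 4335, 3370, 3416 and 3822 of these genes did not overlap. Leaving out single libraries gave 0 to 2 genes called (2 without DMSO replicate 1), 821 to 4628 genes at an unadjusted p under 0.05 (lowest without LGK-974 replicate 3, highest without DMSO replicate 3), 0 to 4 factors at that p (0 without LGK-974 replicate 3 or DMSO replicate 3, 4 without DMSO replicate 1), 1 to 4 factors without overlap and a median of the factors from −0.35 to 0.090. Over all tested genes, the groups of 4484 of 19712 (without LGK-974 replicate 3) to 9213 of 19948 (without DMSO replicate 3) did not overlap. Factors higher relative to cardiomyocyte markers numbered 8 (76.3% of all tested genes), relative to fibroblast markers 0 (4.57%) and in plain log2 CPM 4.

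Signs turned in the following. With coding transcripts only, the log2 fold changes of Gata4, Tbx20, Mef2c, Zfpm2, Tek and Tie1 were −0.050, −0.0036, −0.067, −0.16, −0.041 and 0.023. With background subtracted, Gata4, Tbx20, Mef2c, Hey1 and Tek were at −0.15, −0.12, −0.13, 0.093 and −0.14. With no filter, Meis1 and Tie1 were at 0.048 and 0.073, and with counts scaled from TPM, Tek was at −0.036. Over the fits that left out 1 library, the ranges that crossed 0 among the factors, the genes most alike them and Vcl were −0.18 to 0.33 for Gata4, −0.59 to 0.12 for Nkx2-5, −0.025 to 0.25 for Tbx20, −0.26 to 0.058 for Mef2a, −0.052 to 0.21 for Mef2c, −0.14 to 0.11 for Meis1, −0.50 to 0.047 for Hdac5, −0.070 to 0.25 for Tek, −0.22 to 0.27 for Tie1 and −0.0075 to 0.32 for Vcl. Differences in the leading transcript's share crossed 0 for Gata4 (−8.76 to 2.10 points), Tbx20 (−0.059 to 1.01) and Mef2c (−1.14 to 0.76). The cause of these changes was not tested.

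The replicate numbers recur in both groups. Same-numbered libraries deviated together with correlations of 0.487, −0.0616 and 0.315, and differently numbered ones with −0.514 to 0.157. Whether the numbers pair the mice cannot be told from these values. A fit with the replicate number as a block called 0 genes, had 3312 at an unadjusted p under 0.05, and gave Hand2 a log2 fold change of −0.63 (edgeR adjusted p = 0.178). Each factor had at least 613 counts in every library, and how far depth limits these values was not tested.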
